A study of Mus musculus with 6 samples.

Results

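Cd34, Emcn, Ly6a, Fabp4, Aqp1, Cd9 and Kit are 7 genes by which capillary endothelium, or a zone of the liver's endothelium, is often recognised. They were picked by name from a table of 48897 mouse genes, and all 7 were found and passed the filter on low counts. Their RNA was measured by sequencing in 3 PHx libraries and 3 Sham libraries, numbered 1, 3 and 4 in both groups. PHx stands for partial hepatectomy, the surgical removal of part of the liver. Sham animals had an operation without it. Both groups were C57BL/6 mice aged 7 to 8 weeks, sampled on day 14 after surgery, and the labels give no altered gene and no drug. Liver sinusoidal endothelial cells were pulled out with magnetic beads against CD146, a protein that pericytes and smooth muscle cells also carry. Whether a library stands for a single animal or a pool is not said. Every p-value below therefore sets a group difference against the spread between libraries, which may be technical.

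Sinusoidal endothelium lines the capillaries of the liver. It is perforated by open pores, takes up waste from blood through scavenger receptors, and normally holds little of the CD34 protein that marks the closed capillaries of other organs. When sinusoids lose their pores and come to resemble ordinary capillaries, a change called capillarisation, CD34 is among the proteins that increase. Endothelium also differs along the path of blood through the liver lobule, from the portal vein to the central vein, and in mice the receptor gene Kit is higher towards the central vein.

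The libraries held between 38765116 and 51888481 counts. Levels are given as CPM, counts scaled to the size of the library, after adjustment by edgeR's trimmed mean of M-values (TMM), and differences as log2 fold changes of PHx over Sham with a standard error (SE). Sinusoidal genes were abundant everywhere: the 13 listed ones, Stab1 and Stab2 leading, summed to 19415 to 30626 CPM in PHx libraries and 35989 to 37609 CPM in Sham libraries. RNA of other cells was present too. Neutrophil markers summed to 845, 38.2 and 4924 CPM in PHx 1, 3 and 4, against 468, 253 and 49.2 CPM in Sham 1, 3 and 4, so PHx 4 stood apart. Listed stellate cell and fibroblast genes summed to 5865 to 7117 CPM in PHx and to 2132 to 2604 CPM in Sham libraries, and 6 of the 13 rose in edgeR (10 in DESeq2), the collagen genes Col3a1 and Col1a2 and the filament gene Des having the smallest adjusted p. In such bulk RNA, fewer cells of a type and less RNA per cell cannot be told apart.

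None of the 7 genes passed an adjusted p of 0.05 in edgeR's quasi-likelihood test, where 0.862% of the 19033 tested genes passed, 0.846% higher and 0.0158% lower in PHx. At an unadjusted p under 0.05 stood 2 of the 7, Aqp1 and Cd9, against 12.7% of all tested genes (7.93% higher and 4.73% lower in PHx). DESeq2 also called none of the 7. The same 2 genes were the only ones of the 7 whose PHx and Sham libraries did not overlap. Cd9 lay above in every PHx library and Aqp1 below. Groups did not overlap for 20.5% of all tested genes, with PHx above for 10.6% and below for 9.96%. Log2 fold changes were positive for 5 of the 7 and negative for Aqp1 and Emcn, where 10083 of all 19033 tested genes had a positive one. The median log2 fold change of the 7 was 0.27, against 0.03 over all tested genes.

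**Figure D1:**
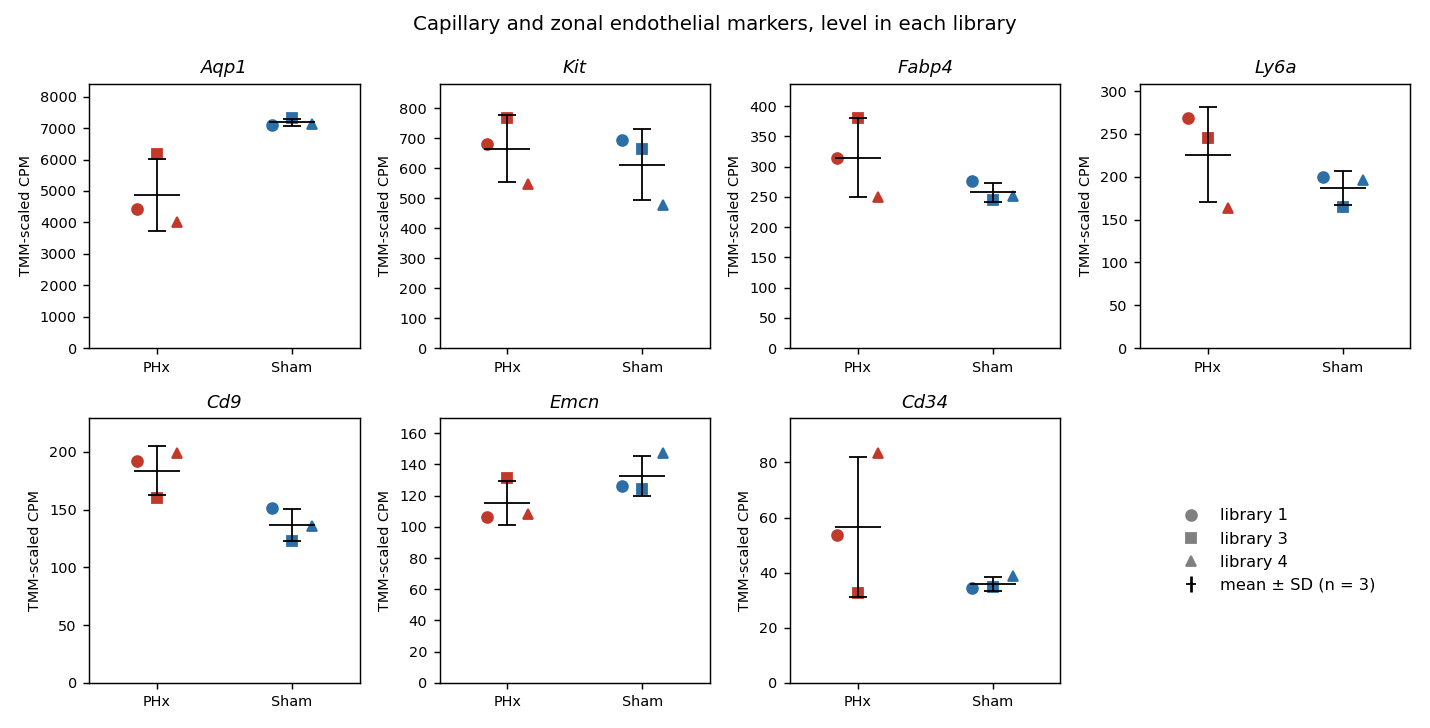
TMM-scaled CPM of each gene (y axis, starting at 0) in the PHx and Sham libraries, with a symbol for each library number and the mean ± SD of 3 libraries per group. The Aqp1 and Cd9 groups are apart, with Aqp1 between 4020 and 6160 CPM in PHx and between 7108 and 7316 CPM in Sham, and Cd34 spreads widely in PHx only.

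Compared per length of transcript, on the authors' RPKM scale, Aqp1 had the highest level of the 7 in both groups and Cd34 the lowest. Aqp1 stood at 1781 ± 383 RPKM in PHx and 2568 ± 68.8 RPKM in Sham (SD, n = 3 each). Fabp4 followed at 363 ± 73.4 RPKM in PHx and 289 ± 14.3 RPKM in Sham, then Ly6a at 229 ± 62.6 and 184 ± 17.7 RPKM. Cd9 came next at 156 ± 21.4 RPKM in PHx and 113 ± 10.1 RPKM in Sham, Kit at 122 ± 21.1 and 110 ± 20.7 RPKM, and Emcn at 78.8 ± 7.74 and 88.5 ± 8.86 RPKM. Cd34 closed the order at 21.9 ± 9.62 RPKM in PHx and 13.5 ± 1.0 RPKM in Sham. The order was the same in both groups. The ranges of neighbours overlapped for Fabp4 and Ly6a, Ly6a and Cd9, and Cd9 and Kit in PHx, and for Cd9 and Kit and for Kit and Emcn in Sham. Within single libraries Fabp4 exceeded Ly6a in all 6. The order turned for Ly6a and Cd9 in PHx 4, for Cd9 and Kit in PHx 3 and Sham 3, and for Kit and Emcn in Sham 4.

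Upstream sequence is shown for Aqp1 and Cd9, since they were the genes with groups apart, in opposite directions. RefSeq's promoter table for build GRCm38.p6 held an entry for 5 of the 7 genes, the others being Ly6a and Fabp4. The 250 bases before the start of Aqp1 are chr6:55336049-55336298 on the plus strand and those of Cd9 are chr6:125494761-125495010 on the minus strand, both printed 5′ to 3′ in the gene's direction. Capitals mark GGAAG or its reverse CTTCC, the core letters of sites for ETS factors, a family that includes endothelial regulators such as ERG.
Aqp1: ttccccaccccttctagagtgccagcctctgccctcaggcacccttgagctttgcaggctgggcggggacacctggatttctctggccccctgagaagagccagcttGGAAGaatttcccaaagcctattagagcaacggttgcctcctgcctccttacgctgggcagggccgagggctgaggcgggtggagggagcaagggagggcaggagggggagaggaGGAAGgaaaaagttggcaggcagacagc
Cd9: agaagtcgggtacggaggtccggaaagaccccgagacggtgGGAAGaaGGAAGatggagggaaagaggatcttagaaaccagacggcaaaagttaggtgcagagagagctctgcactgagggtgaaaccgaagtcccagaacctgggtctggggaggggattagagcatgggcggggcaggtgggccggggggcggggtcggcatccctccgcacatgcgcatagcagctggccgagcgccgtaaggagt
Each window held 2 such matches, Emcn also held 2, and Cd34 and Kit held 1 each, while 64.1% of 32851 promoter windows of this length held at least 1. AGATAA, the GATA motif searched on both strands, was in none of the 5 genes' windows and in 9.99% of all windows. CCACCC, searched for KLF factors, matched 2 times in Aqp1 and 1 time in Kit (28.1% of all windows), AACAAT for SOX factors 1 time in Emcn (9.42%), GTGGGAA for RBPJ 1 time in Cd9 (5.42%), and TGACTCA for AP-1 in none (4.46%). The RBPJ match in Cd9 overlaps its first ETS match. These are matches of letters, not sites. GC content was 62.0% upstream of Aqp1 and 61.6% upstream of Cd9, against a median of 52.4% over all windows.

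Aqp1 encodes a water channel of capillary endothelium, bile duct epithelium and red blood cells (chromosome 6, 55336299 to 55348555, mm10). Its level was 4421, 6160 and 4020 CPM in PHx 1, 3 and 4, against 7108, 7316 and 7125 CPM in Sham 1, 3 and 4. All PHx libraries lay below all Sham libraries, PHx 3 came nearest to them, and the Sham libraries were close together. By count it ranked between 3 and 5 among all genes of every library, and it took 0.398% to 0.606% of the counts in PHx and 0.692% to 0.729% in Sham. The fold change was 0.678 (95% interval 0.484 to 0.948), or -0.56 ± 0.21 on the log2 scale (SE), with an unadjusted p of 0.0284 and an adjusted p of 0.334 in edgeR.

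The genes whose profile over the 6 libraries was nearest to that of Aqp1 were Igfbp4, a carrier of insulin-like growth factors, and Tmem204. Their root mean square distances were 0.051 and 0.056 in log2 CPM, each gene being centred on its own mean, among 11037 genes averaging at least 5 CPM. Of the 13 sinusoidal genes, 12 had a negative log2 fold change and Lyve1, a hyaluronan receptor gene, one of 0.16. None of the 13 passed in edgeR, where 11 had an unadjusted p under 0.05, all lower, and DESeq2 called 5 of them lower. Their median log2 fold change was -0.56, and 11 of them lay below in every PHx library. Aqp1 exceeded the mean log2 CPM of these 13 genes by 1.65, 1.67 and 1.67 in PHx 1, 3 and 4 and by 1.70, 1.71 and 1.69 in Sham 1, 3 and 4. That difference between groups was -0.03 in log2, with an exact two-sided permutation p of 0.1, the smallest that 3 against 3 libraries allow. Of 11 aquaporins listed, 6 were tested and none passed in edgeR or DESeq2, Aqp1 alone having an unadjusted p under 0.05. Aqp9, a glycerol channel of hepatocytes and leukocytes, stood at 5.83, 1.47 and 12.5 CPM in PHx 1, 3 and 4, against 5.65, 4.72 and 2.70 CPM in Sham 1, 3 and 4. Aqp11 was at most 1.78 CPM in any library, and Aqp6 and Aqp12 had a count of 0 throughout. Cholangiocyte markers, which could bring Aqp1 along, summed to 368 to 690 CPM in PHx and 344 to 600 CPM in Sham libraries. Erythroid markers summed to 39.8 to 57.2 CPM in PHx and 24.8 to 32.2 CPM in Sham libraries. The part of either cell type in the result was not tested.

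Cd9 encodes a tetraspanin, a small membrane protein that gathers integrins and other partners into patches of the cell surface (chromosome 6, 125460266 to 125494755). It was measured at 192, 160 and 199 CPM in PHx 1, 3 and 4, against 151, 123 and 136 CPM in Sham 1, 3 and 4. Every PHx library exceeded every Sham library, with PHx 3 lowest of the PHx group and near Sham 1. The fold change was 1.34 (95% interval 1.09 to 1.65), which is 0.43 ± 0.13 in log2, at an unadjusted p of 0.0109 and an adjusted p of 0.235 in edgeR. Ntpcr and Creg1 had the nearest profiles, at distances of 0.047 and 0.050.

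Of 23 tetraspanins tested, Tspan6 rose by 1.45 ± 0.24 in log2 (edgeR adjusted p = 0.0447), none fell and 22 did not pass. DESeq2 called 2 tetraspanins higher and 1 lower. The tested tetraspanins had a median log2 fold change of 0.05. Tspan6 was scarce, at 11.2, 9.07 and 13.8 CPM in PHx 1, 3 and 4 and 3.47, 4.97 and 3.96 CPM in Sham 1, 3 and 4. Cd81, the close relative of Cd9 that shares many of its partners, lay on the other side, at 362, 436 and 344 CPM in PHx 1, 3 and 4, against 443, 476 and 470 CPM in Sham 1, 3 and 4. The RPKM of Cd9 was 0.677, 0.466 and 0.737 times that of Cd81 in PHx 1, 3 and 4, and 0.434, 0.330 and 0.368 times in Sham 1, 3 and 4. Cd81 itself did not pass (log2 fold change -0.28 ± 0.13, adjusted p = 0.413). Ptgfrn, which encodes a direct partner of the CD9 and CD81 proteins, was at 40.9, 39.1 and 45.1 CPM in PHx 1, 3 and 4 and at 23.7, 31.4 and 25.4 CPM in Sham 1, 3 and 4. Its groups were also apart, but it did not pass (log2 fold change 0.64 ± 0.14, adjusted p = 0.0998). Igsf8, another partner, had a log2 fold change of 0.06 ± 0.14.

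Several cell types that carry CD9 were represented in these libraries. Platelet markers summed to 37.7, 28.5 and 81.8 CPM in PHx 1, 3 and 4, against 30.8, 21.6 and 23.2 CPM in Sham 1, 3 and 4. Most of that sum was the single gene Itga2b, and none of the 7 tested platelet genes passed in edgeR or DESeq2. Mesothelial markers, of which Msln and Upk1b rose and 6 did not pass in edgeR, while DESeq2 called 6 of the 8 higher, summed to 88.2 to 183 CPM in PHx and to 40.6 to 55.5 CPM in Sham libraries. The stellate sums given above differed between the groups in the same direction. What these cells contributed to Cd9 was not tested.

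Cd34 encodes a sialomucin, a heavily glycosylated surface protein of capillaries, blood-forming progenitors and some fibroblasts (chromosome 1, 194938821 to 194961292). Its level was 53.5, 32.7 and 83.5 CPM in PHx 1, 3 and 4, against 34.3, 34.7 and 38.8 CPM in Sham 1, 3 and 4. PHx 4 was highest of all and PHx 3 lowest of all, so the groups overlapped. The coefficient of variation was 45.1% among PHx libraries and 6.94% among Sham libraries, where the medians over tested genes averaging at least 5 CPM were 13.7% and 9.53%. The log2 fold change was 0.66 ± 0.32, with a 95% interval from -0.10 to 1.41 and an adjusted p of 0.450 in edgeR. Without PHx 4 it was 0.26, and without PHx 3 it was 0.92.

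Other transcripts were high in PHx 4 too. Selp, the P-selectin gene of platelets and activated endothelium, stood at 154, 153 and 1066 CPM in PHx 1, 3 and 4, against 159, 78.8 and 102 CPM in Sham 1, 3 and 4. Sele, the E-selectin of activated endothelium, was at 72.5, 137 and 546 CPM in PHx 1, 3 and 4, against 61.9, 28.7 and 55.6 CPM in Sham 1, 3 and 4. Neither passed. The neutrophil sums had the PHx order of Cd34, and so had the summed progenitor and mast cell list. That list summed to 92.5, 20.6 and 184 CPM in PHx 1, 3 and 4, against 75.6, 36.9 and 27.4 CPM in Sham 1, 3 and 4. Most of it was Ptprc, at 80.5, 17.5 and 179 CPM in PHx 1, 3 and 4. The other tested genes of the list, Mpo, Flt3, Myb and Cd48, were highest in PHx 1. The stellate and fibroblast sum was highest in PHx 3 and did not have the Cd34 order, but its genes differed. Dcn, at 1346, 1156 and 1903 CPM in PHx 1, 3 and 4, had that order, as had Pdgfra, Pdgfrb and Pi16. The other genes of the list did not. The erythroid and platelet sums also had the Cd34 order. Most of the platelet sum was Itga2b, at 26.7, 17.3 and 68.4 CPM in PHx 1, 3 and 4, while Pf4 was lowest in PHx 4. The hepatocyte sum was 1846, 835 and 1850 CPM in PHx 1, 3 and 4, so PHx 1 and PHx 4 were nearly level. Within each of these 3 lists some genes had the Cd34 order and others did not. Whether any of these cells brought Cd34 along was not tested. Fam134b and Gpsm3 had the nearest profiles, at distances of 0.097 and 0.13.

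Emcn encodes endomucin, a sialomucin of capillary and venous endothelium that hinders leukocyte adhesion (chromosome 3, 137341061 to 137431069). It was measured at 106, 131 and 108 CPM in PHx 1, 3 and 4, against 126, 124 and 147 CPM in Sham 1, 3 and 4. The groups overlapped through PHx 3. The log2 fold change was -0.20 ± 0.13 (95% interval -0.49 to 0.09, edgeR adjusted p = 0.531). Cyth3 and Cdk19 had the nearest profiles, both within 0.033. Per length, Cd34 stood at 0.284, 0.140 and 0.435 times the RPKM of Emcn in PHx 1, 3 and 4, and at 0.153, 0.158 and 0.148 times in Sham 1, 3 and 4. PHx 3 thus lay just below the Sham range and the other PHx libraries above it. None of the 5 sialomucin genes compared passed in edgeR or DESeq2, and 1 of them, Podxl2, had an unadjusted p under 0.05. Podxl, the podocalyxin gene, had a log2 fold change of -0.25 ± 0.14, Cd164 of 0.02 ± 0.14 and the scarce Podxl2 of 1.25 ± 0.42.

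Fabp4 encodes a small carrier of fatty acids found in capillary endothelium, fat cells and macrophages (chromosome 3, 10204342 to 10208602). Its level was 314, 380 and 250.4 CPM in PHx 1, 3 and 4, against 276, 245 and 252 CPM in Sham 1, 3 and 4. PHx 1 and PHx 3 exceeded all Sham libraries and PHx 4 lay within their range. The log2 fold change was 0.29 ± 0.16 (95% interval -0.09 to 0.67, edgeR adjusted p = 0.494), and without PHx 3 it was 0.12. Pgap1 and Dennd2a had the nearest profiles, at distances of 0.056 and 0.070. Its relative Fabp5, at 73.1, 105 and 124 CPM in PHx 1, 3 and 4 and 73.8, 80.2 and 74.5 CPM in Sham 1, 3 and 4, had its PHx libraries in another order. None of the 7 tested genes of the family passed in edgeR or DESeq2, and none had an unadjusted p under 0.05. Pparg, which encodes a nuclear receptor that activates Fabp4 in fat cells, stood at 6.76, 7.04 and 14.5 CPM in PHx 1, 3 and 4, against 5.49, 4.87 and 5.73 CPM in Sham 1, 3 and 4, and did not pass (adjusted p = 0.361). The fat cell genes Adipoq and Plin1 had at most 11 and 10 counts in any library. Macrophage markers summed to 282, 221 and 272 CPM in PHx 1, 3 and 4, against 591, 159 and 299.6 CPM in Sham 1, 3 and 4. Their part in Fabp4 was not tested.

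Ly6a encodes Sca-1, a lipid-anchored surface protein of capillary endothelium, progenitor cells and lymphocytes in mice (chromosome 15, 74994877 to 74998031). It was measured at 268, 246 and 164 CPM in PHx 1, 3 and 4, against 200.03, 165 and 197 CPM in Sham 1, 3 and 4. PHx 4 was the lowest of the 6 and the other PHx libraries the highest. The log2 fold change was 0.27 ± 0.19 (95% interval -0.17 to 0.72, edgeR adjusted p = 0.579), and it was 0.46 without PHx 4, 0.12 without PHx 1 and 0.16 without Sham 3. Ephx1, an epoxide hydrolase, and Nqo1, a quinone reductase, had the nearest profiles, at distances of 0.044 and 0.064. T and NK cell markers summed to 6.88 to 22.3 CPM in PHx and 13.7 to 25.8 CPM in Sham libraries, and their part in Ly6a was not tested.

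Relatives of Ly6a share some of its sequence. Of the distinct 50-base words in GENCODE's Ly6a transcripts, 19.0% also occur, on either strand, in transcripts of 4 other genes, Ly6c1 first among them. Ly6c1 was at 10.7, 5.26 and 20.1 CPM in PHx 1, 3 and 4, against 7.58, 4.52 and 5.71 CPM in Sham 1, 3 and 4, and Ly6c2, a monocyte gene, was at most 30.1 CPM. Reads shared among them could be split in a way the table does not show. None of the 11 tested family members passed in edgeR, where 1 higher and 1 lower gene had an unadjusted p under 0.05. DESeq2 called 1 lower. Ly6e, whose RPKM was close to that of Ly6a, had a log2 fold change of -0.03 ± 0.18. Gpihbp1, the capillary gene that anchors lipoprotein lipase, was at 394, 524 and 353 CPM in PHx 1, 3 and 4, below its 573, 680 and 682 CPM in Sham 1, 3 and 4, and did not pass (log2 fold change -0.61 ± 0.17, adjusted p = 0.213).

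Kit encodes the receptor tyrosine kinase for stem cell factor, a gene of blood-forming progenitors, mast cells and, in the mouse liver, endothelium near the central vein (chromosome 5, 75574987 to 75656722). Its level was 682, 767 and 547 CPM in PHx 1, 3 and 4, against 696, 664 and 477 CPM in Sham 1, 3 and 4. The ranges of the groups largely coincided. The log2 fold change was 0.12 ± 0.19 (95% interval -0.33 to 0.57, edgeR adjusted p = 0.821), and it was -0.07 without Sham 4 and -0.0022 without PHx 3. Tnxb and Gatsl3 had the nearest profiles, at distances of 0.074 and 0.079. Kitl, which encodes stem cell factor, stood at 67.9, 98.2 and 117 CPM in PHx 1, 3 and 4, against 64.1, 78.9 and 87.2 CPM in Sham 1, 3 and 4, and did not pass. The mast cell genes Cpa3, Ms4a2, Fcer1a and Mcpt4 had between 0 and 8 counts in any library, while Kit had at least 23494.

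Genes of the central vein side did not pass either, in edgeR or in DESeq2. Their summed level was 2359, 1981 and 1747 CPM in PHx 1, 3 and 4, against 2088, 1800 and 1444 CPM in Sham 1, 3 and 4. As with Kit, Sham 4 was the lowest of the Sham libraries and PHx 4 the lowest of the PHx libraries. Of 8 such genes 0 passed and 0 had an unadjusted p under 0.05, 4 had a positive and 4 a negative log2 fold change, and the median was 0.15. Those with the highest CPM were Thbd, the thrombin receptor thrombomodulin (0.47 ± 0.24), Ptgs1, a cyclooxygenase (-0.10 ± 0.24), and Wnt2, a Wnt ligand (-0.17 ± 0.35). Of 10 genes of the portal side 0 passed in edgeR, with a median of 0.14, while 4 higher and 2 lower genes had an unadjusted p under 0.05. In DESeq2 2 were higher and 0 lower. Those with the highest CPM were Ltbp4, a binding protein of transforming growth factor beta (-0.65 ± 0.28), Ntn4, a netrin (-0.38 ± 0.12), and Msr1, a scavenger receptor (0.01 ± 0.13). Of the 10, 4 lay above and 2 below in every PHx library.

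**Figure D2:**
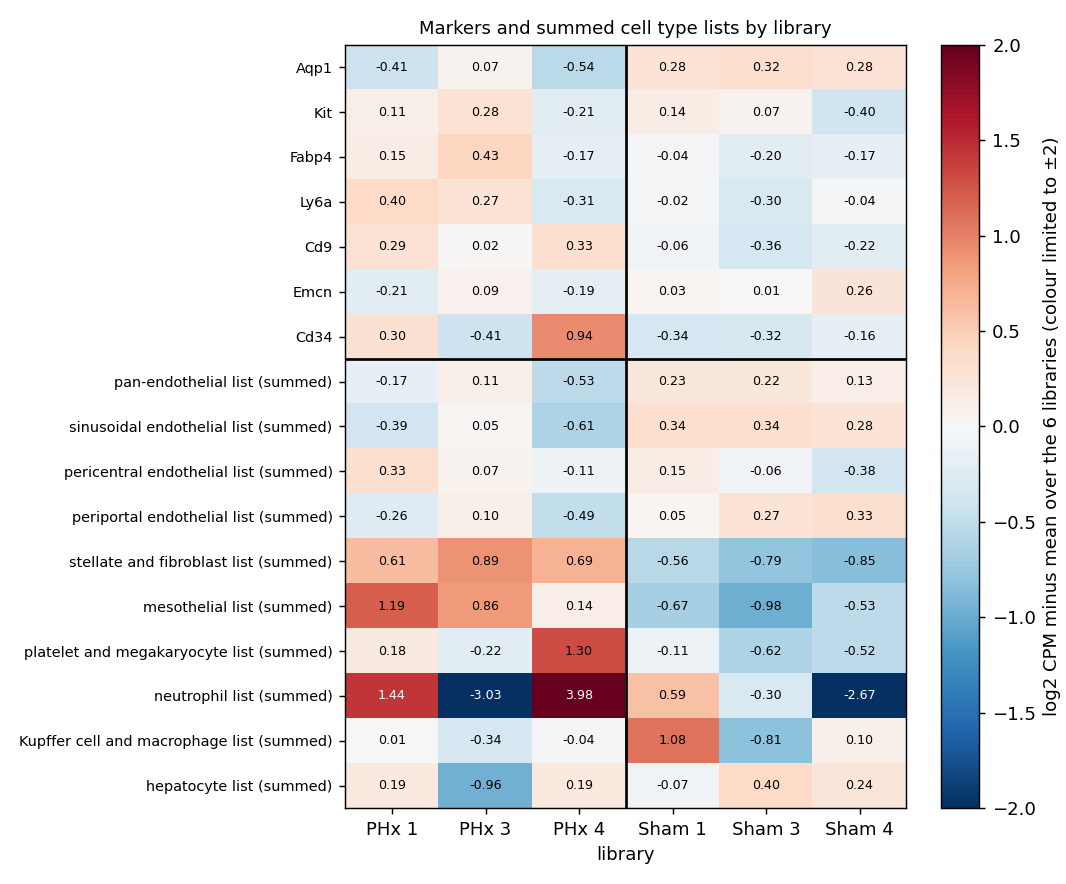
log2 CPM of the 7 genes and of summed cell type lists (rows) in the PHx and Sham libraries (columns), each row centred on its mean over 6 libraries and the colour limited at 2 in either direction. Cd34 and the summed neutrophil and platelet lists are highest in PHx 4, the platelet sum being mostly Itga2b. Aqp1 has the same order of libraries in PHx as the sinusoidal and pan-endothelial lists.

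The 15 listed pan-endothelial genes, Pecam1 and Cdh5 among them, summed to 15126, 18448 and 11837 CPM in PHx 1, 3 and 4, against 19952, 19841 and 18707 CPM in Sham 1, 3 and 4. None passed in edgeR, 6 had an unadjusted p under 0.05, all lower, and DESeq2 called 2 lower. A total of 14 had a negative log2 fold change, and the median was -0.36. Each of the 7 genes was therefore also expressed relative to the mean log2 CPM of these 15 in the same library. On that scale Cd9, Fabp4, Ly6a and Kit lay above in every PHx library and Aqp1 lay below. All tested genes outside the list did so in 30.6% and 0.92% of cases, and their median difference was 0.36. The 4 genes that lay above are to be read against that shift.

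Relative to pan-endothelial genes, Fabp4 had log2 levels of -0.85, -0.77 and -0.98 in PHx 1, 3 and 4, against -1.38, -1.60 and -1.48 in Sham 1, 3 and 4, a difference of 0.62. Kit had 0.27, 0.24 and 0.15 in PHx 1, 3 and 4, against -0.04, -0.16 and -0.56 in Sham 1, 3 and 4, a difference of 0.47. Both genes, and also Ly6a, overlapped on the CPM scale and did not overlap on this scale. The differences were 0.77 for Cd9, 0.59 for Ly6a and -0.24 for Aqp1, each with an exact two-sided permutation p of 0.1, as for Fabp4 and Kit. Cd34 and Emcn overlapped, with differences of 0.90 (exact permutation p = 0.2) and 0.14 (exact permutation p = 0.3). Single libraries moved both: Cd34 was at 0.47 without PHx 4 and 1.34 without PHx 3, and Emcn at 0.086 without PHx 4, 0.075 without Sham 3 and 0.24 without Sham 4. Set against the 13 sinusoidal genes instead, 5 of the 7 lay above and Aqp1 below, where 41.2% and 0.273% of all other tested genes did. The Aqp1 difference was then only -0.03 in log2. Its log2 fold change of -0.56 was also the median of the 13 sinusoidal genes, so its place below is not particular to it.

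**Figure D3:**
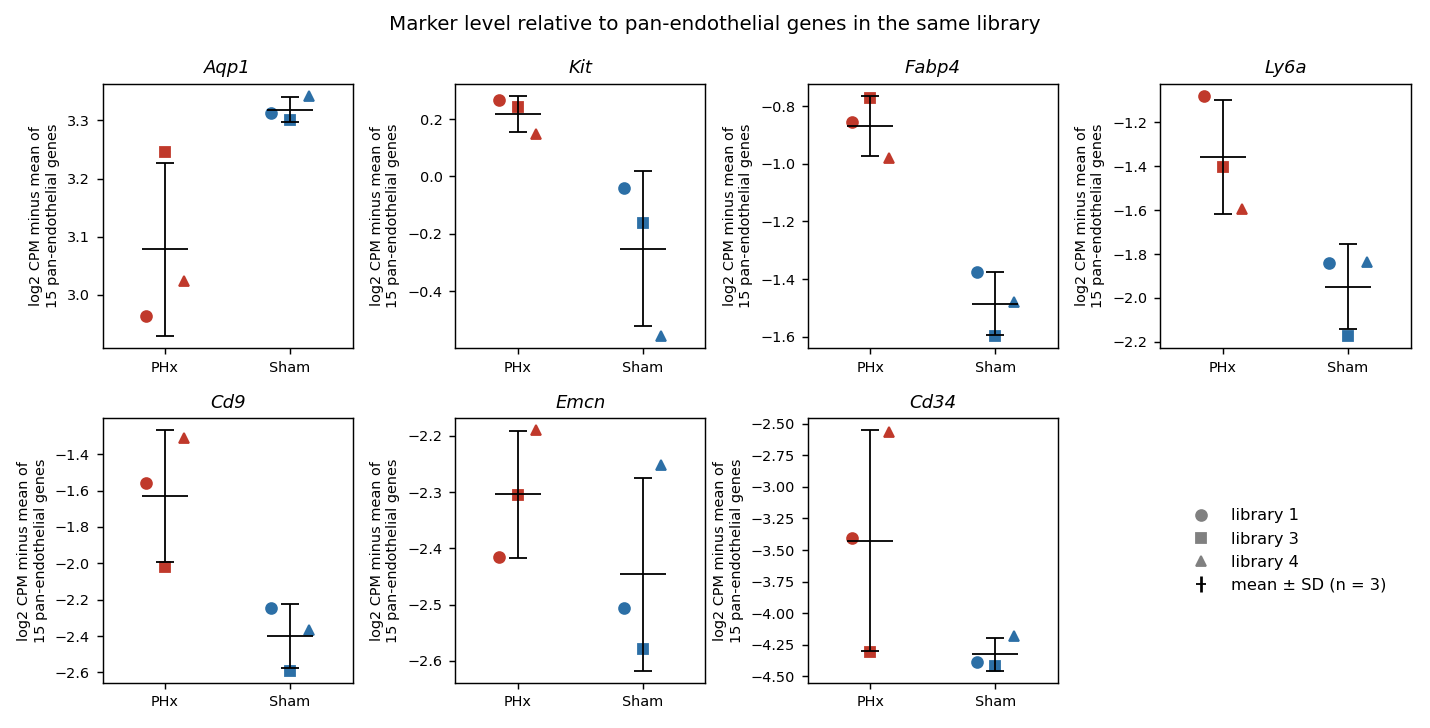
log2 CPM of each gene minus the mean of 15 pan-endothelial genes in the same library (y axis, not starting at 0), for PHx and Sham libraries with mean ± SD of 3. Fabp4, Ly6a and Kit overlap in CPM but separate on this scale, with differences of 0.62, 0.59 and 0.47, while Emcn and Cd34 overlap. Over all tested genes outside the list the median difference is 0.36, and 30.6% lie above in every PHx library.

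Other genes, listed as markers of closed capillaries and larger vessels, gave no common direction. The list is mixed, since Plvap, Gpihbp1, Cd300lg and Cd36 were abundant in all of these sinusoidal preparations. Its counts are therefore not a result about closed capillaries alone. Of 17 tested, 0 passed in edgeR, where 2 higher and 2 lower genes had an unadjusted p under 0.05. In DESeq2 2 were higher and 1 was lower. Of the 17, 9 had a positive and 8 a negative log2 fold change, and the median was 0.06. Plvap, which encodes the diaphragm protein of fenestrae and caveolae, was at 1679, 1187 and 1315 CPM in PHx 1, 3 and 4 and at 1024, 840 and 747 CPM in Sham 1, 3 and 4, with groups apart (log2 fold change 0.68 ± 0.19, adjusted p = 0.197). Vwf, the von Willebrand factor of large vessels, overlapped (0.13 ± 0.43). Cd300lg, a surface protein of capillaries, lay below in every PHx library (-0.67 ± 0.23). In edgeR, calls were made in lists of other cells and of lymphatic vessels: 6 of 13 stellate and fibroblast genes, 3 of 8 smooth muscle and pericyte genes, 2 of 8 mesothelial genes and, among 5 lymphatic markers, Pdpn rose. DESeq2 called 10, 3, 6 and 2 genes of these lists higher, and also 2 erythroid genes, which edgeR did not call. Each of these lists has a positive median log2 fold change, of 1.68, 0.99, 2.33 and 0.86. Their part in the levels of the 7 genes was not tested.

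**Figure D4:**
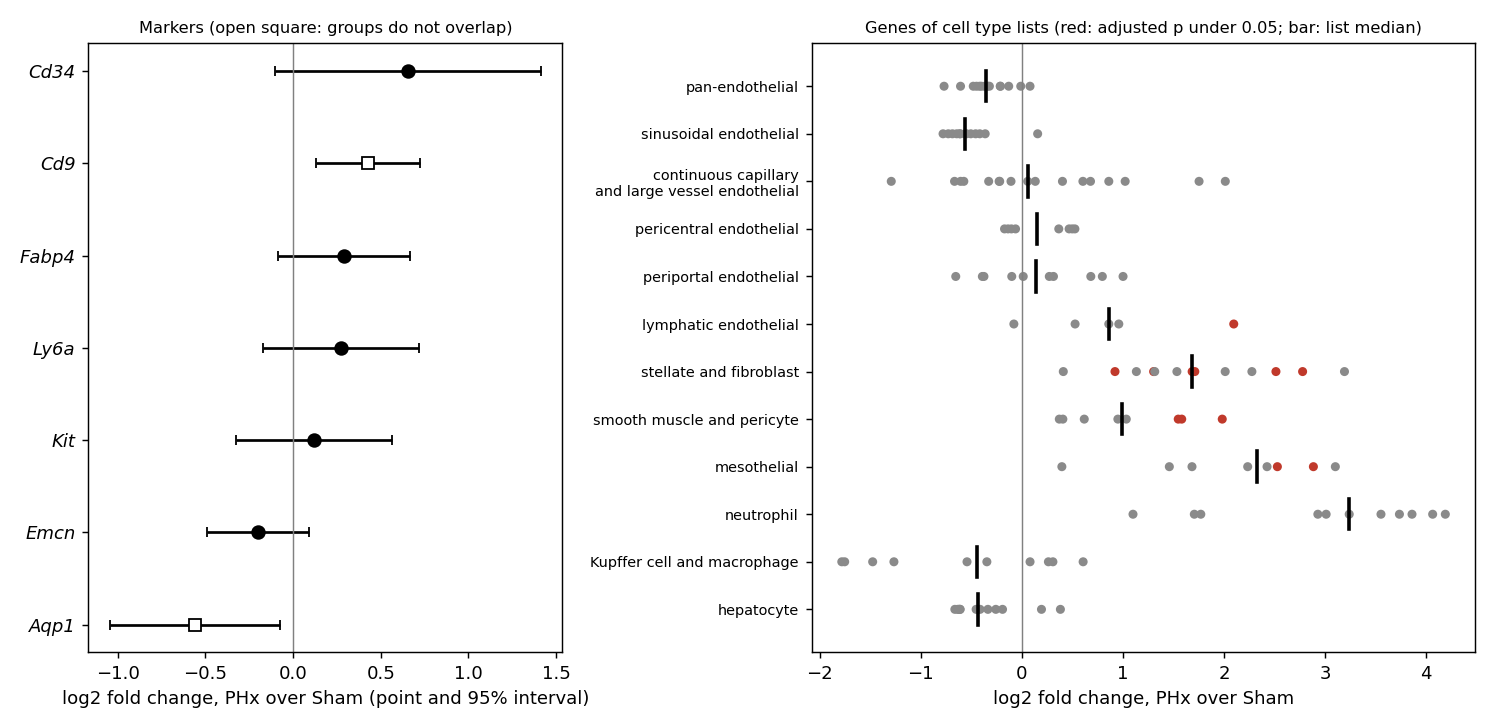
Left, log2 fold change of PHx over Sham for each of the 7 genes with its 95% interval, open squares marking groups that do not overlap. Right, the same quantity for the tested genes of cell type lists, red where the adjusted p was under 0.05, with a bar at the list median, which is -0.36 for pan-endothelial and 1.68 for stellate and fibroblast genes.

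**Figure D5:**
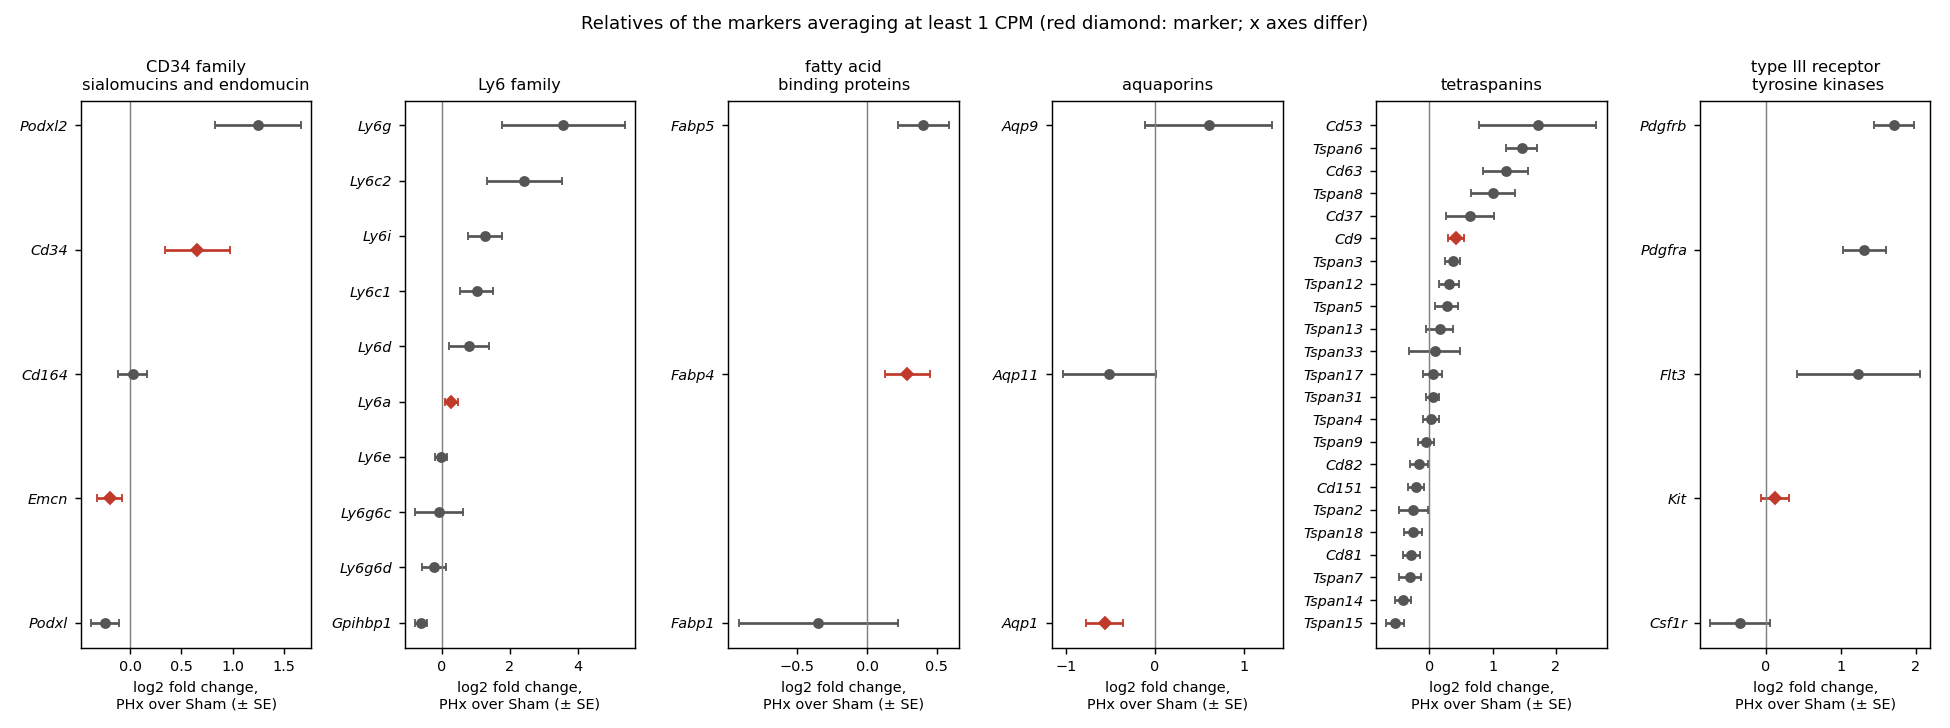
log2 fold change of PHx over Sham ± SE for relatives of the 7 genes that averaged at least 1 CPM, with the 7 genes as red diamonds and a separate x scale in each panel. Kit lies at 0.12 beside Pdgfrb at 1.71, a pericyte and stellate gene of the same receptor class that rose (adjusted p = 0.0448), and Cd9 at 0.43 is above zero and Cd81 at -0.28 below.

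Cd34 and Cd9 overlap antisense genes. Cd34 shares 148 of its 7290 exonic bases with the antisense gene Gm16897, which was at most 1.18 CPM, and Cd9 shares 218 of 2044 with Gm26728, listed at 0. Of the 50-base words of Cd9 transcripts, 14.4% also occur, on either strand, in transcripts of 173 other genes, so its counts are less certain. Gm26728 alone held 169 of these 287 words. For Cd34 the share is 2.14%. The use of strand in counting is not given in the sources used here, so antisense reads could not be separated. Emcn, Ly6a, Fabp4, Aqp1 and Kit overlap no other gene in GENCODE release M21, which is on the same build.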

How the data were processed

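The deposited table gave, per the file headers, the count and the RPKM of every gene in all 6 libraries, beside a length in base pairs. Per the submitters' processing notes, bcl2fastq, TopHat2 2.0.13 and build mm10 (GRCm38) were used. The counting program, annotation and strand setting are not given in the sources used here. The authors' RPKM could be recomputed from count, length and library total in 100% of cells (tolerance 1e-06). RPKM served to compare levels between genes, and counts served for all tests. Of 48897 genes, 17208 had no count, and 27 date-like names were restored from Entrez numbers. Every value column had a sample. A count of 0 allows 3 counts, or 0.0578 to 0.0774 CPM, for counting error only.

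edgeR 4.0.16 (R 4.3.3) fitted all 6 libraries with group as the term, using TMM scaling, filterByExpr and robust quasi-likelihood tests. P-values were adjusted by Benjamini-Hochberg over 19033 genes, and SE is the absolute log2 fold change over the root of F. Averages of log2 CPM used a prior count of 2. The fit was also run on counts simulated gene by gene from these libraries, which checks the code and not the calls made here. Alternatives used DESeq2 1.42.0, limma 3.58.1, other scalings and filters, a replicate block and each library left out. The genes and lists were chosen with earlier results of these data known. Named genes were the 7 genes, up to 3 called or most abundant genes of each of 19 marker lists, family and partner genes averaging at least 1 CPM, the 2 nearest profiles and defining markers near 0. The Ly6 list held 1 name that was not matched.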

Additional observations from a re-analysis of the deposited data

How the results depend on the processing

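No alternative called any of the 7 genes, and 102 of 105 alternative log2 fold changes kept their direction. Emcn was at 0.14 with pan-endothelial scaling, where the median over all genes was 0.38, so Emcn stayed below that median. Kit was at -0.0022 without PHx 3 and -0.068 without Sham 4. When 1 library was dropped at a time, Cd34 ranged over 0.26 to 0.92. The ranges were -0.31 to -0.15 for Emcn, 0.12 to 0.46 for Ly6a, 0.12 to 0.43 for Fabp4, -0.77 to -0.44 for Aqp1, 0.33 to 0.51 for Cd9 and -0.07 to 0.24 for Kit. Adjusted p-values over all alternatives ranged from 0.0628 (DESeq2) to 0.680 for Aqp1, 0.0907 (pan-endothelial scaling) to 0.685 for Cd9, and 0.0539 (pan-endothelial scaling) to 0.813 for Fabp4. With pan-endothelial scaling Cd34 was at 1.07, Ly6a at 0.60, Fabp4 at 0.62, Cd9 at 0.79, Kit at 0.46 and Aqp1 at -0.23. The levels relative to pan-endothelial genes kept their direction in all 49 alternatives. On that scale the median difference over all other tested genes was 0.36, so a kept positive direction says little. Emcn, at 0.14, lay below that median.

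Over all genes, 161 were higher and 3 lower. Pan-endothelial scaling gave 423 and 3, keeping genes of low count 359 and 30, and DESeq2 721 and 126. They were 94 and 1 with limma-voom, and 16 and 1 at an adjusted p under 0.01. Dropping single libraries left 0 to 160 higher and 0 to 9 lower genes. Both were 0 in edgeR without Sham 4, with 2241 genes below an unadjusted p of 0.05. Without PHx 4 and Sham 4, chosen after seeing the data, they were 24 and 1. With the replicate number as a block they were 14 and 1, and the block called none of the 7 genes. Same-numbered libraries correlated at -0.04, -0.15 and -0.17 in their deviations from the group means. Libraries of unlike number correlated at -0.48 to 0.57. With 3 libraries per group these values cannot show whether a shared number marks a shared batch. Apart from the stricter threshold, the cause of the changed counts of called genes was not tested. Fits of the same size differed too, with 160 higher genes without PHx 4 and 6 without Sham 3. Depth was no narrow limit for the 7 genes, whose lowest count in any library was 1293, for Cd34 in Sham 1.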
